A study of Drosophila melanogaster with 48 samples.

Results

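Actin is the protein of thin filaments, and flies make it from a small gene family. Cytoplasmic actins build the cortex and the processes of most cells, while the muscle actins are made mainly by contractile tissue, each in its own set of muscles. Monomer-binding proteins such as profilin feed filament growth, cofilin severs and recycles filaments, and calponin-type proteins bind along them; in glia this system shapes the fine processes that reach synapses.

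The members described here were 9 genes taken by their identifiers from 17558 genes in the count files: the 6 actin genes, divided into 2 cytoplasmic forms (Act5C and Act42A) and 4 muscle forms (Act57B, Act79B, Act87E and Act88F), and 3 actin-binding genes (chic, tsr and Chd64). The list was chosen by gene family with earlier counts of these libraries known, and it states no threshold. As far as it tells, the measured values it was selected on were the counts of cytoplasmic against muscle forms over the 24 libraries and the time course of Chd64. The split into cytoplasmic and muscle forms and the 24 h pattern of Chd64 are therefore given below as descriptions, without tests. The replicate comparisons of single actin genes used counts that the list was selected on. Their p values are given as descriptions too and are no test of the split. All 9 members were among the 9392 genes with a mean of at least 20 counts per library. Act88F lay nearest that limit, with a mean of 26.2 counts, and the other members averaged between 221 counts (Act42A) and 4124 counts (Act5C).

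The libraries came from translating ribosome affinity purification (TRAP), in which ribosomes carrying a GFP-tagged L10a subunit are pulled down with their messenger RNA. All flies shared one genotype: F1 progeny of elav-Gal80, eaat1-Gal4 females and elav-Gal80, UAS-EGFP-L10a males. eaat1-Gal4 drives the tag mainly in astrocytes but also in some cortex glia, and elav-Gal80 was added to silence it in neurons. Flies were held in 12:12 light and dark cycles and then moved to constant darkness (DD), where heads were pooled at 12 times, every 4 h over 2 days, in 2 biological replicates from independent crosses. The age of the flies is not given in the sources used here. Replicate 2 and replicate 1 differ in the cross and in every step done separately for them, and these cannot be told apart. By their titles, the replicate 2 libraries bear the letters c and g. In replicate 1 those at 4, 12, 20 and 28 h bear b, that at 16 h bears d and e, and the rest bear a. What the letters stand for is not given in the sources used here, so replicate 1 may not be uniform. As the material was bulk lysate of whole heads, fewer cells of a type and less RNA per cell cannot be told apart either, and neither can tagged-cell RNA and RNA of other head tissue carried through the pull-down.

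Each of the 24 libraries (the sum of its technical data sets) held between 6371034 and 37267216 gene counts, with a median of 12251542 in replicate 2 and 17949998.5 in replicate 1. Reads with more than one alignment were not counted for any gene. Their tally made up between 3.92% and 7.33% of all tallies in replicate 2 apart from its 28 h library (47.0%). In replicate 1 it made up between 21.7% and 36.9% apart from its 16 h library (9.47%). Such a tally may hold an entry per alignment rather than per read, so these need not be shares of reads. The paper reports similar average shares of uniquely mapped reads for its replicates. In the 28 h library of replicate 2 the 10 most abundant genes took 49.6% of the counts, against 14.6% at most in the others. The 28 h library of replicate 1 rests on only one of its technical runs, since the other held 91 counts. None of 6 astrocyte markers could be paired with an identifier, so the labelled cell type was not checked. The coding regions of the actins are nearly alike, and a read that fits several of them drops out of the count. The actin values are thus the uniquely placed part only. Which genes the multiply aligned reads came from is not given, so their bearing on the actin values was not tested.

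Values below are CPM, gene counts scaled to a common library size after TMM normalisation in edgeR. Counts were not divided by transcript length, so the levels of single genes were not ranked. Sums, ratios and shares over the actin genes are in counts, weighted by length, and were compared between libraries only. In the comparison of replicate 2 with replicate 1, the SE and p measure scatter among libraries of a time course. They do not measure how independent crosses vary, since libraries of the same number are not independent samples of crosses.

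Act5C (FBgn0000042), the ubiquitous cytoplasmic actin, lies on chromosome X from 5900861 to 5905399 (RefSeq annotation of Release 6). In replicate 2 it had a lowest value of 164 CPM, a median of 201 CPM and a highest of 278 CPM, and in replicate 1 the lowest was 114 CPM, the median 210 CPM and the highest 306 CPM. The replicates overlapped almost wholly. Its lowest value of all fell in the 16 h library of replicate 1 and its highest in the 8 h library of the same replicate. The log2 difference of replicate 2 over replicate 1 was -0.01 ± 0.11 (least-squares SE), adjusted p = 0.968 in edgeR's quasi-likelihood test. Its sign turned with the setting.

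Act42A (FBgn0000043, chromosome 2R, 6013910 to 6015689), the other cytoplasmic form, ran from 9.26 CPM through a median of 12.7 CPM to 19 CPM in replicate 2, and from 7.48 CPM through 10.6 CPM to 15.8 CPM in replicate 1. Again the replicates overlapped, and replicate 2 was higher at 7 of 12 times. The difference did not pass (log2 0.21, adjusted p = 0.258, edgeR). Neither cytoplasmic gene was thus called between replicates, which is no test of one class against the other.

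Of the muscle forms, Act87E (FBgn0000046, chromosome 3R, 13425983 to 13428375), an actin of larval and adult muscles, differed most between the replicates. It had a lowest value of 47.95 CPM, a median of 89.3 CPM and a highest of 141 CPM in replicate 2, against 9.70 CPM, 20.9 CPM and 64.0 CPM in replicate 1. Replicate 2 was higher at 12 of 12 times, and 11 of its 12 libraries lay above the highest library of replicate 1. The ratio of the replicate means was 3.23, with a log2 difference of 1.85 ± 0.22 (SE; adjusted p = 7.22e-05, edgeR). The highest replicate 1 value belonged to its 16 h library. In that replicate it was also the one with a low share of tallies for reads aligned more than once. Without it, the highest of the remaining 11 was 52.5 CPM and the log2 difference was 1.99. The 28 h library of replicate 2, with the highest such share of all, stood at 96.3 CPM, within the range of its own replicate. The part of multiply aligned reads in this difference was not tested. The gene overlaps the annotated lncRNA:CR45591, and reads of the pair may not be separable.

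Act57B (FBgn0000044, chromosome 2R, 20944021 to 20946431), also an actin of larval and adult muscles, showed a smaller difference in the same direction. Its lowest, median and highest values were 123, 161 and 289 CPM in replicate 2, against 90.7, 112 and 206 CPM in replicate 1. The ranges overlapped, but replicate 2 was higher at 12 of 12 times, by a log2 difference of 0.47 ± 0.08 (SE; adjusted p = 0.00187, edgeR). Both replicates reached their highest value at 4 h. At that time Act57B stood at 289 CPM in replicate 2 and 206 CPM in replicate 1, while at 28 h, the same circadian time a day later, the values were 171 CPM and 147 CPM.

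Act79B (FBgn0000045, chromosome 3L, 21985210 to 21987190), the actin of tubular thoracic and leg muscles, had the widest scatter within replicates of the 9 members. Replicate 2 ran from 25.2 CPM through a median of 59.6 CPM to 98.9 CPM, and replicate 1 from 11.6 CPM through 28.8 CPM to 97.9 CPM. Replicate 1 fell into separate levels. Its libraries at 4, 20 and 28 h held 92.0, 87.9 and 97.9 CPM, and none of the others exceeded 40.7 CPM. The titles of these libraries bear the letter b, as does that at 12 h, which held 33.9 CPM. The part of the lettered series in these levels was not tested. Replicate 2 was higher at 8 of 12 times, and the difference did not pass (log2 0.78 ± 0.35, SE; adjusted p = 0.0776, edgeR). This call turned on single libraries. The adjusted p was 0.0290 without either 28 h library, and it also passed without any one of the 4 h or 20 h libraries. It was 0.0199 with DESeq2, 0.0180 with data sets 1 and 3 alone and 0.0464 over genes with a mean of at least 100 counts.

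Act88F (FBgn0000047, chromosome 3R, 15439969 to 15442177), the actin of the indirect flight muscles, was close to the limit of detection. It lay between 0.640 and 2.04 CPM in replicate 2 and between 0.298 and 2.99 CPM in replicate 1, with medians of 1.53 and 1.27 CPM. The replicates overlapped and did not differ by the test (log2 0.15, adjusted p = 0.795, edgeR). Its 3 highest libraries were those of replicate 1 at 4, 20 and 28 h, with 2.99, 2.67 and 2.71 CPM, the same libraries in which Act79B stood high.

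Among the actin-binding genes, chic (FBgn0000308, chromosome 2L, 5972115 to 5981018) encodes profilin, which loads actin monomers for filament growth. Its lowest, median and highest values were 83.7, 114 and 218 CPM in replicate 2, against 31.6, 70.6 and 107 CPM in replicate 1. It was higher in replicate 2 at 12 of 12 times, although at 8 h (95.5 against 94.4 CPM) and 24 h (107.2 against 107.0 CPM) the libraries hardly differed. In all, 9 of 12 replicate 2 libraries lay above the highest of replicate 1. The ratio of the means was 1.80 and the log2 difference 0.88 ± 0.19 (SE; adjusted p = 0.00183, edgeR).

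The cofilin gene tsr (FBgn0011726, chromosome 2R, 24044453 to 24046805), whose product severs filaments, moved the other way. Replicate 2 ran from 124 CPM through a median of 155 CPM to 191 CPM, and replicate 1 from 138 CPM through 190 CPM to 247 CPM. Replicate 2 was the higher only at 20 h (170 against 138 CPM). The ratio of means was 0.788, and the log2 difference of -0.34 ± 0.08 (SE) passed the test (adjusted p = 0.0136, edgeR). With both 28 h libraries and the 16 h library of replicate 1 left out, it was -0.28 with an adjusted p of 0.0567. tsr overlaps IntS1, and how reads of the overlap were assigned is not given in the sources used here.

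Chd64 (FBgn0035499, chromosome 3L, 4114289 to 4122388), a calponin-type actin-binding protein related to transgelin, ran from 127 CPM through a median of 172 CPM to 261 CPM in replicate 2, and from 122 CPM through 192 CPM to 254 CPM in replicate 1. The replicates overlapped almost wholly and did not differ by the test (log2 -0.09 ± 0.07, SE; adjusted p = 0.483, edgeR).

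Together, 4 of the 9 members passed the comparison of replicate 2 with replicate 1, against a background of 31.7% of all genes tested. Act87E, chic and Act57B were higher (16.9% of genes were) and tsr was lower (14.7% of genes were). No member separated the replicates without overlap, which 0.596% of genes did. The share of members called was thus near that of all genes, and the comparison is given for the size of the differences rather than their number.

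**Figure D1:**
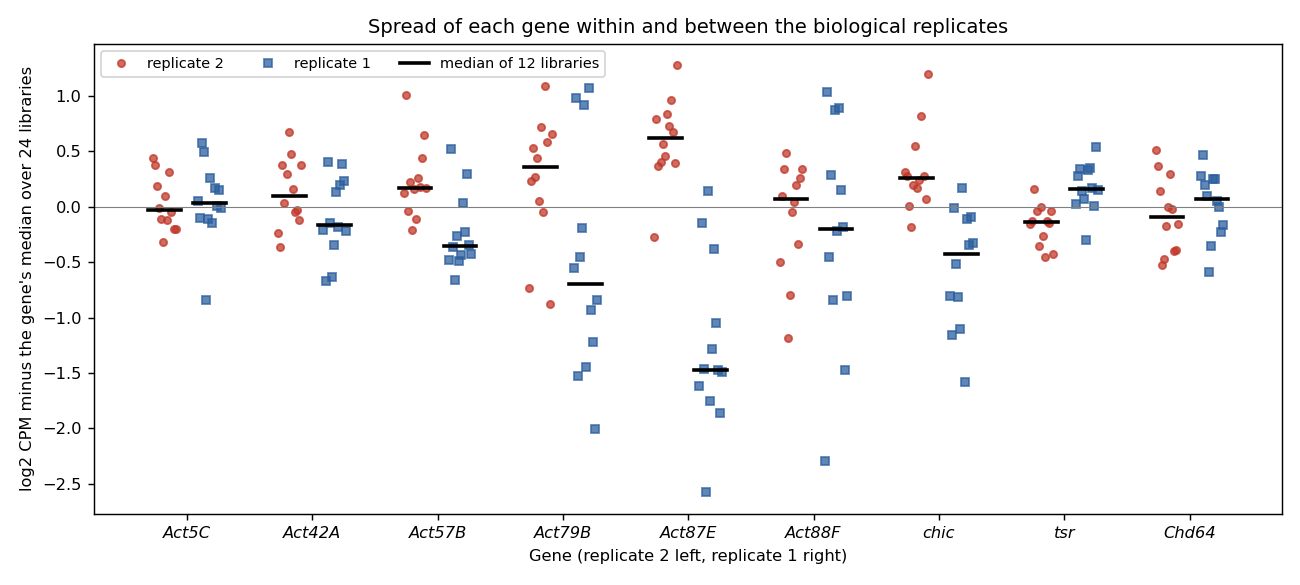
Each point is 1 library, with log2 CPM of the gene minus its median over the 24 libraries on the vertical axis and the genes along the horizontal axis (replicate 2 left, replicate 1 right of each pair, 12 libraries each; bars are medians). Act87E shows the largest offset between replicates, with a log2 difference of 1.85 in the fit, while Act5C and Chd64 overlap.

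The sums of the classes put these differences side by side. The cytoplasmic sum (Act5C plus Act42A) averaged 226 ± 35.97 CPM in replicate 2 and 228 ± 51.9 CPM in replicate 1 (SD, n = 12 each). The muscle sum (Act57B, Act79B, Act87E and Act88F) averaged 324 ± 57.0 CPM in replicate 2 and 196 ± 67.9 CPM in replicate 1. Of these classes, then, only the muscle sum had replicate means further apart than either SD.

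The log2 ratio of cytoplasmic over muscle counts within a library does not depend on library scaling. The length factor is the same in each library, so it does not enter a comparison between libraries, but the ratio's distance from 0 has no meaning of its own. The ratio rests on uniquely placed reads, and whether their part of each gene varied between libraries was not tested. It ran from -0.96 (44 h) through a median of -0.57 to 0.31 (0 h) in replicate 2, and from -0.88 (16 h) through 0.47 to 1.14 (12 h) in replicate 1. The mean was -0.52 ± 0.33 in replicate 2 and 0.25 ± 0.71 in replicate 1 (SD). Without Act87E, an alternative added after the data were seen, the means were -0.04 ± 0.30 in replicate 2 and 0.47 ± 0.67 in replicate 1, so the offset between them was smaller but kept its direction. As shares of all counts of the 6 actin genes, Act87E made up 16.5% ± 3.72 in replicate 2 and 6.67% ± 4.25 in replicate 1, and Act5C made up 38.8% ± 5.70 in replicate 2 and 51.4% ± 11.5 in replicate 1. The share of Act57B was similar, at 31.4% ± 6.04 in replicate 2 and 29.3% ± 5.57 in replicate 1.

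**Figure D2:**
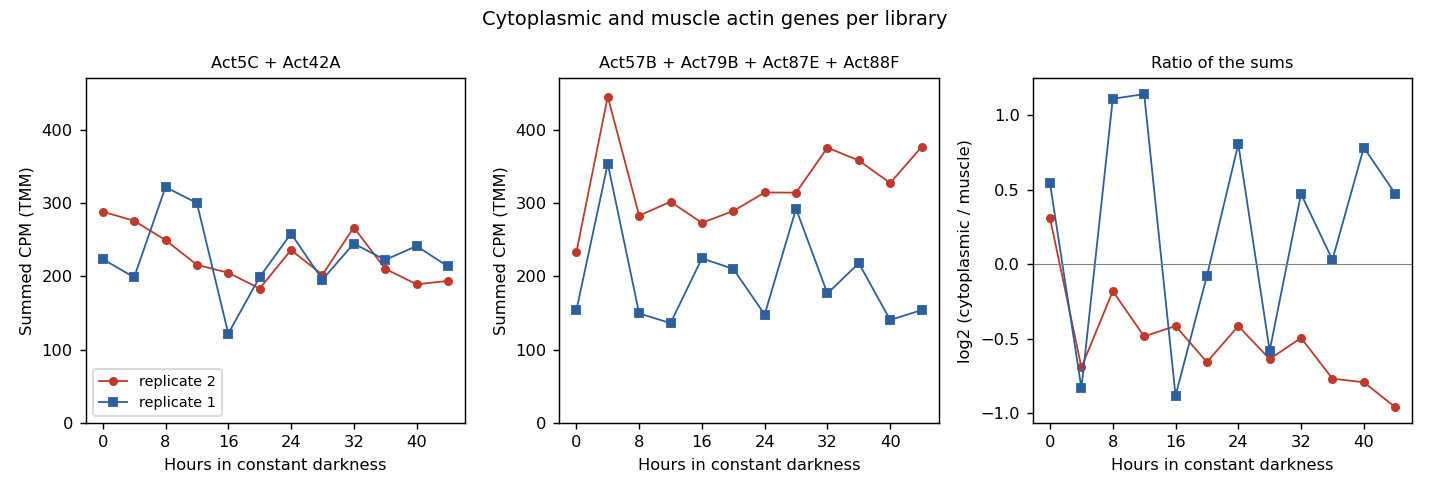
The left and middle plots give the summed CPM of the 2 cytoplasmic and the 4 muscle actin genes against hours in DD, and the right plot the log2 ratio of the sums (red circles, replicate 2; blue squares, replicate 1; 1 library per point). The cytoplasmic sums of the replicates cross, the muscle sum is higher in replicate 2 at each time, and the ratio of replicate 1 dips to -0.83, -0.88 and -0.58 at 4, 16 and 28 h.

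The libraries of replicate 1 with the lowest ratios were those at 16, 4 and 28 h, with log2 ratios of -0.88, -0.83 and -0.58. By their titles, those at 4 and 28 h bear b and that at 16 h bears d and e. The b library at 12 h had the highest ratio (1.14). At 16 h the cytoplasmic sum was at its lowest of all libraries (122 CPM), whereas at 4 h and 28 h the muscle sum was at its highest in that replicate (354 and 292 CPM). Of 23 muscle marker genes listed, 2 could be paired with an identifier, too few to judge muscle content. Of these, Mlp60A, a muscle LIM protein gene, had its 3 highest replicate 1 values in the same libraries, with 160 CPM at 16 h, 151 CPM at 4 h and 184 CPM at 28 h, against 122 CPM at most in the others. Strn-Mlck, which encodes a muscle myosin light chain kinase, stood at 40.7, 31.7 and 36.9 CPM there, within its replicate 1 range of 25.4 to 77.3 CPM, and was highest at 20 h. The sum of both markers ranged from 130 to 210 CPM in replicate 2 and from 109 to 221 CPM in replicate 1. Between replicates, Mlp60A averaged 137 ± 27.8 CPM in replicate 2 and 115 ± 34.2 CPM in replicate 1 (SD; log2 0.29, adjusted p = 0.179, edgeR), and Strn-Mlck averaged 36.6 ± 6.77 CPM in replicate 2 and 40.9 ± 13.8 CPM in replicate 1 (log2 -0.11, adjusted p = 0.655). The part of muscle RNA in the muscle actin values was not tested.

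Chd64 was the member with a visible daily pattern. Averaged over both replicates (SD, n = 2 at each time), it stood at 241 ± 28.2 CPM at 0 h, 245 ± 12.8 CPM at 4 h and 205 ± 5.87 CPM at 8 h. It was at 161 ± 48.1 CPM at 12 h, 127 ± 6.91 CPM at 16 h and 153 ± 13.6 CPM at 20 h. On the second day it stood at 200 ± 24.8 CPM at 24 h, 221 ± 4.95 CPM at 28 h and 185 ± 6.08 CPM at 32 h, and then at 161 ± 31.0 CPM at 36 h, 148 ± 11.7 CPM at 40 h and 164 ± 0.235 CPM at 44 h. High values thus lay in the early subjective day of both days and low values in the subjective night, with a smaller swing on the second day.

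Pooled by circadian time (SD, n = 4), Chd64 averaged 221 ± 32.1 CPM at 0 h, 233 ± 15.8 CPM at 4 h, 195 ± 12.7 CPM at 8 h, 161 ± 33.0 CPM at 12 h, 137 ± 14.6 CPM at 16 h and 158 ± 10.1 CPM at 20 h. The lowest library at 4 h (217 CPM) lay above the highest at 8 h (210 CPM) and above every library at 12, 16 and 20 h. The neighbours at 0 and 4 h overlapped, as did those at 12, 16 and 20 h. A 24 h cosine fitted to all libraries had a log2 amplitude of 0.38, with an SE of 0.05 by least squares, and peaked at 3.56 h. Fitted in 1 replicate at a time, the amplitude was 0.46 with a peak at 2.54 h in replicate 2 and 0.36 with a peak at 4.59 h in replicate 1. With any single library left out, the amplitude lay between 0.36 and 0.41.

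**Figure D3:**
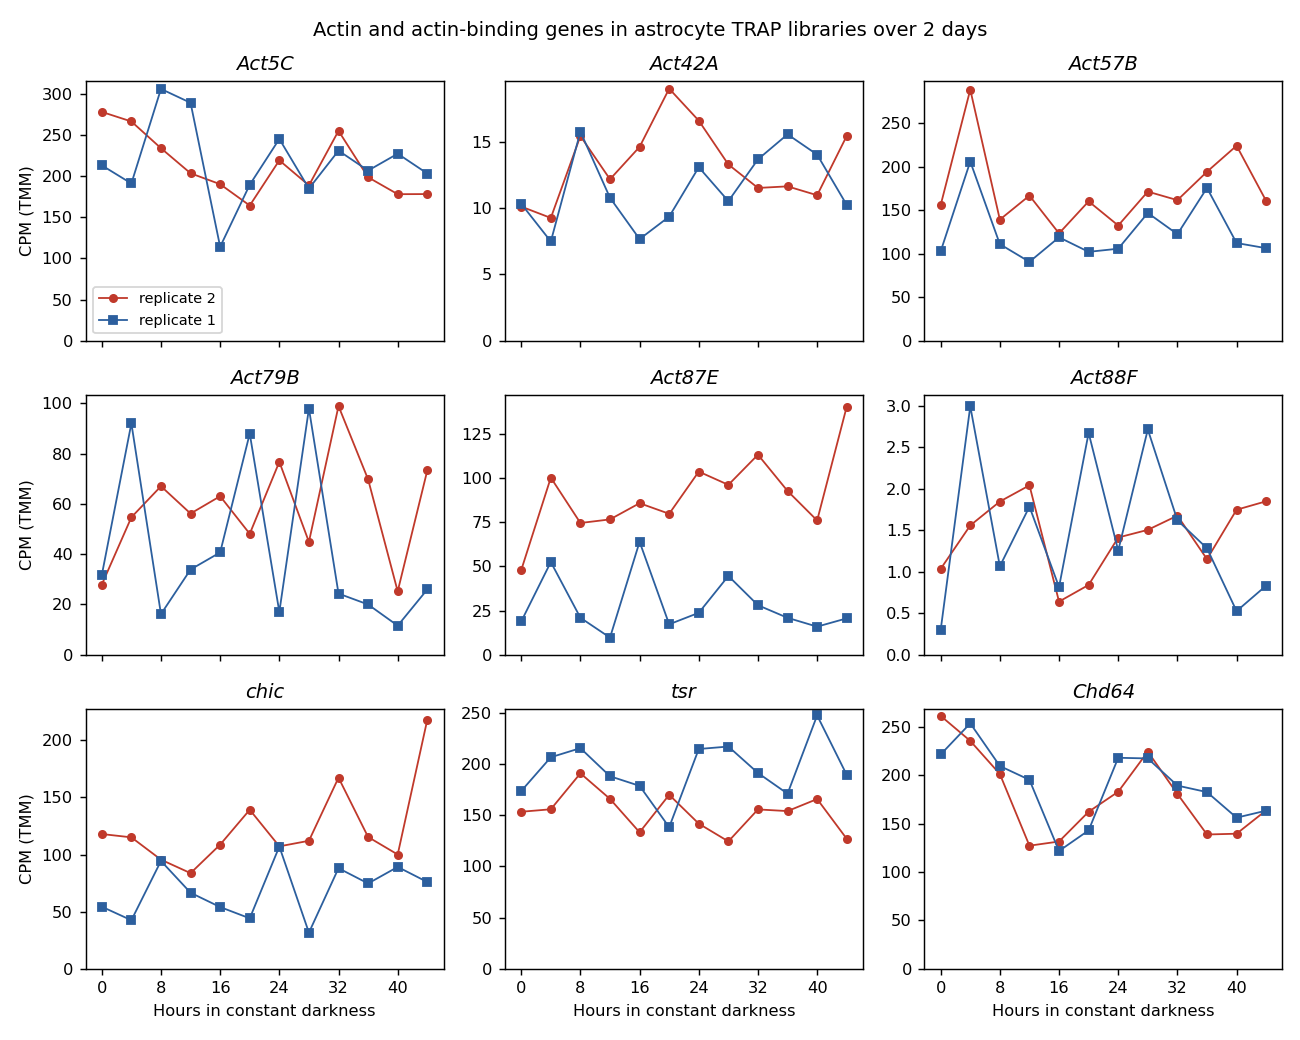
CPM of each of the 9 genes (vertical axes from 0, own scale per gene) against hours in DD in replicate 2 (red circles) and replicate 1 (blue squares), 1 library per point. Chd64 is high at 0 to 4 h and 24 to 28 h and low at 16 h and 40 h in both replicates, while in Act87E and chic the replicates run apart.

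None of the other 8 members passed the 24 h cosine test, which 0.330% of all genes did. With the replicate number as a block, 55 genes passed in place of 31, again with none of these 8. Act5C came nearest, with a log2 amplitude of 0.21 ± 0.08 (SE) and a fitted peak at 6.13 h (unadjusted p = 0.0589, adjusted p = 0.916, edgeR). By circadian time (SD, n = 4) it averaged 239 ± 29.6 CPM at 0 h, 208 ± 39.2 CPM at 4 h, 256 ± 34.7 CPM at 8 h, 224 ± 43.2 CPM at 12 h, 177 ± 47.1 CPM at 16 h and 184 ± 16.5 CPM at 20 h. The lowest library at 8 h (231 CPM) lay above all those at 16 h and 20 h, where the highest was 227 CPM. In replicate 2 Act5C was highest at 0 h and in replicate 1 at 8 h.

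The muscle actins had no 24 h pattern by the test. Log2 amplitudes fitted in edgeR were 0.34 for Act88F, 0.29 for Act79B, 0.17 for Act57B and 0.08 for Act87E. By least squares they were 0.42, 0.29, 0.16 and 0.19, with SEs of 0.21, 0.27, 0.12 and 0.33. The adjusted p was 1.00 for each (edgeR). Act42A, chic and tsr had amplitudes of 0.06, 0.09 and 0.08 with SEs of 0.10, 0.19 and 0.08, and adjusted p = 1.00 as well. The rank-based JTK_CYCLE method adjusts p over the cosine patterns tried for a gene, not over genes. It called 2.81% of genes (264, or 432 by the p alone with the replicate block), none of these 8 in either. With Benjamini-Hochberg over genes, 6 genes had a JTK_CYCLE q under 0.05, or 32 with the block. By JTK_CYCLE, Act5C had an adjusted p of 0.244, and the p was 1.00 for the remaining 7 members other than Chd64. For Act57B, Act79B, Act87E, Act88F and chic, 2 SEs above the least-squares estimate reached amplitudes as large as that of Chd64. The rhythm of these 8 members did not differ by replicate past the test (adjusted p between 0.985 and 0.986, edgeR), which 0 of all genes passed (0%), 287 of them with an unadjusted p under 0.05.

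Between days, no member passed (0 of all genes, 0%, in edgeR, with 1341 at an unadjusted p under 0.05 and 458 called by DESeq2, no member among them). chic had the largest difference, with a lowest value of 31.6 CPM, a median of 104 CPM and a highest of 218 CPM on day 2, against 42.5, 89.1 and 139 CPM on day 1 (log2 0.31 ± 0.27, SE; adjusted p = 0.650). Act87E had a median of 60.4 CPM on day 2 and 58.3 CPM on day 1 (log2 0.30 ± 0.51, SE; adjusted p = 0.835). Chd64 averaged 180 ± 29.2 CPM on day 2 and 189 ± 50.2 CPM on day 1 (SD, n = 12 each; log2 -0.04, adjusted p = 0.899). The days overlapped in each of these genes.

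The scatter of the members within replicates differed widely. The SD of log2 CPM within replicates was 0.84 for Act79B, more than in 97.3% of the 1205 genes with a mean count within 1.5 times of its own, and 0.61 for Act87E, more than in 94.7% of 1082 such genes. For chic it was 0.46 (87.3% of 638 genes). At the other end, tsr had an SD of 0.20, and 5.98% of 301 genes of like count had a smaller one. Chd64, with 0.33, and Act5C, with 0.31, lay near the middle of genes like them (51.0% and 44.3%). In most libraries the technical data sets differed little. Their median absolute log2 difference was between 0.04 and 0.10 for 8 of the members and 0.43 for the sparse Act88F (23 libraries). The largest difference in a single library was 1.06 for Act42A, 0.42 for Act87E and 1.73 for Act88F, and at most 0.25 for the rest.

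Relations between members were read from log2 CPM centred within each replicate, over 24 libraries. The libraries are points of a time course and not repeats of one state. Of 5 relations computed, the 3 that use Chd64 or both actin classes are descriptions, since the list was selected on these values. Chd64 with Act5C had r = 0.58 and rho = 0.48. The r was 0.66 in replicate 2 and 0.54 in replicate 1, and 0.46 without the 2 libraries farthest from the median of Chd64 (16 h of replicate 1 and 12 h of replicate 2). With CPM of the plain library total r was 0.84, and a common scale factor enters both genes.

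The cytoplasmic genes Act5C and Act42A had r = 0.20 (adjusted p = 0.638) and rho = 0.15 (adjusted p = 0.848; permutation tests, adjusted over the 5 relations). The sign was not stable, with r = -0.60 in replicate 2, r = 0.68 in replicate 1 and r = -0.20 without the 8 h and 16 h libraries of replicate 1, and r was 0.71 with the plain library total. Profilin and cofilin (chic with tsr) had r = 0.05 (adjusted p = 0.831) and rho = 0.04 (adjusted p = 0.865, permutation tests), with r = -0.42 in replicate 2 and r = 0.32 in replicate 1. It was 0.37 without the 28 h library of replicate 1 and the 44 h library of replicate 2, and 0.66 with the plain library total. As descriptions, the cytoplasmic and muscle sums had r = -0.42 and rho = -0.54, with r = 0.02 in replicate 2 and r = -0.58 in replicate 1. That sign rests on the scaling, as r was 0.22 with the plain library total. Chd64 and the muscle sum had r = 0.08 and rho = -0.08, and r = 0.31 with the plain library total.

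**Figure D4:**
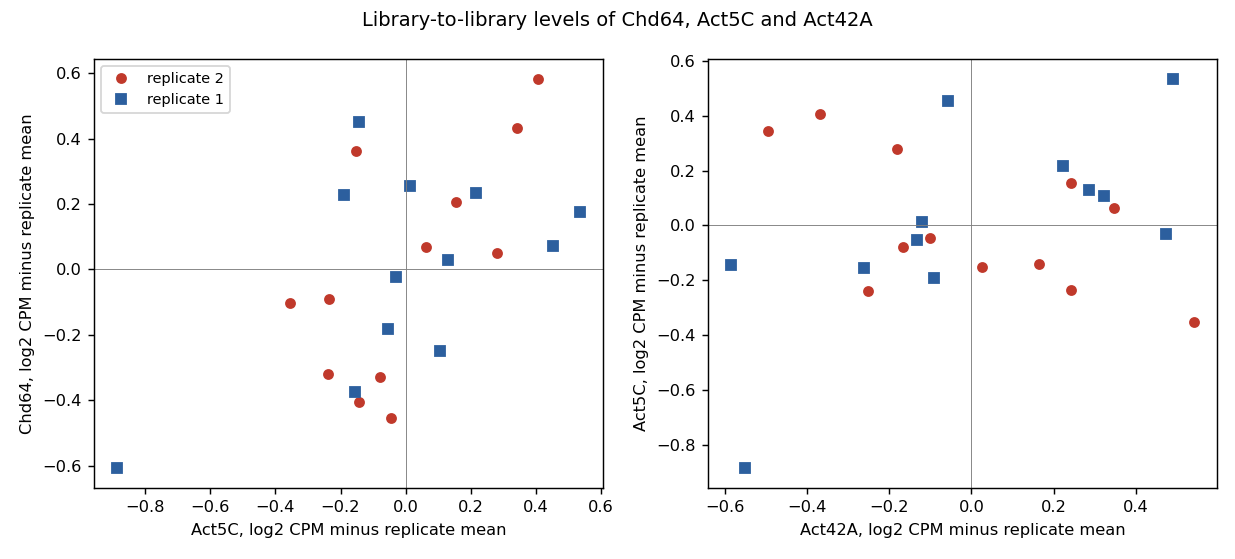
Left, Chd64 against Act5C; right, Act5C against Act42A; both axes are log2 CPM minus the mean of the library's replicate, with replicate 2 as red circles and replicate 1 as blue squares (12 libraries each). Chd64 and Act5C vary together in both replicates (r = 0.66 in replicate 2 and 0.54 in replicate 1), and the lowest point of both plots is the 16 h library of replicate 1; Act5C and Act42A run in opposite directions in replicate 2 (r = -0.60) and together in replicate 1 (r = 0.68).

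The rest of the 9 by 9 correlations are given as descriptions. Act79B varied with Act88F (r = 0.54) and with Act87E (r = 0.51), and Act57B with Act87E (r = 0.43). Act87E ran against Act5C (r = -0.60), and Act79B against chic (r = -0.57). chic varied with Act42A (r = 0.51), and tsr had no r beyond 0.32 in size with any other member. These values share libraries and scale factors, and no test was made of them. Centring was by replicate number, so differences between the lettered libraries of replicate 1 remain in them. Within replicate 1, Act79B and Act88F were highest and chic lowest in the libraries at 4, 20 and 28 h, which bear the letter b. The part of these libraries in the r values was not tested.

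**Figure D5:**
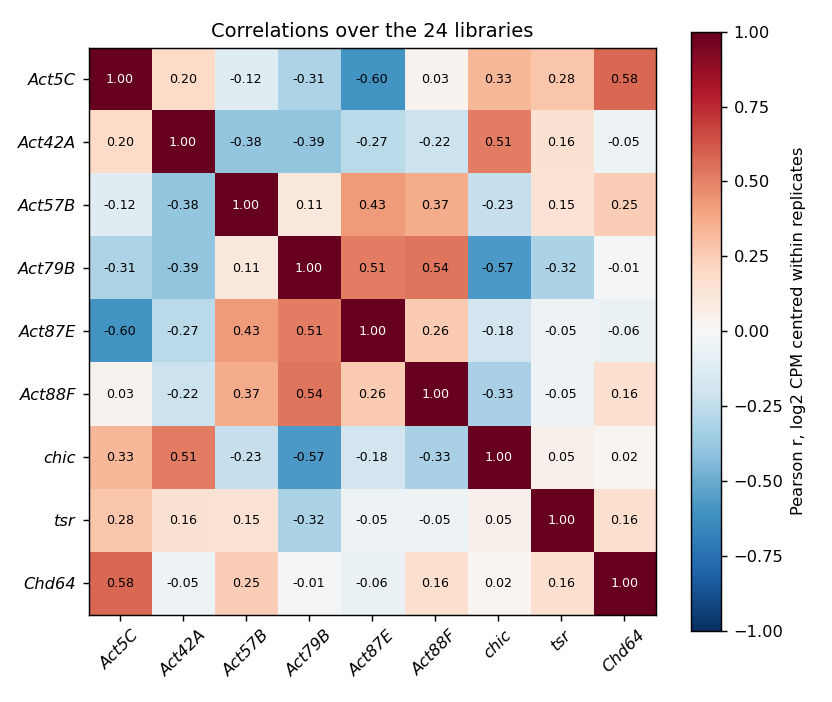
Pearson r of log2 CPM, centred within replicates, for each pair of the 9 genes over 24 libraries (colour scale from -1 to 1, value printed in each cell). The muscle actins form a block of positive values (0.11 to 0.54), Act5C and Act87E have r = -0.60, and Chd64 has its highest value, 0.58, with Act5C.

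Over all genes, the pattern most like that of Chd64 was that of CG17278 (r = 0.83), followed by DipB, a dipeptidase gene (r = 0.79), CG17646 (r = 0.79), Nepl9, a neprilysin-like gene (r = 0.78), and GstE9, a glutathione S-transferase gene (r = 0.78). Act5C was most like FBgn0264294 (r = 0.81), which the tables used here do not name, and TotX, a Turandot stress peptide gene, was the third in that order (r = 0.80). The muscle sum was most like FBgn0033135, also unnamed here (r = 0.83). Each r is over 24 libraries, centred within replicates, and picked as the highest of all genes, so it is no test.

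Of 73 further regulators of actin, 13 could be paired with an identifier, mostly through tables ordered by rhythm, and all 13 were tested. None passed the cosine test (0.330% of all genes did). Between replicates, 2 were higher and 1 was lower, against 16.9% and 14.7% of all genes, so the share called was no larger than the background of 31.7%. Abi, a subunit of the complex that activates branching, averaged 14.2 ± 2.65 CPM in replicate 2 and 10.3 ± 2.86 CPM in replicate 1 (SD; log2 0.48, adjusted p = 0.0228, edgeR). Tm1, a tropomyosin gene, averaged 61.5 ± 11.002 CPM in replicate 2 and 52.0 ± 10.3 CPM in replicate 1 (log2 0.25, adjusted p = 0.0383), and cpb, the beta subunit of capping protein, 17.5 ± 3.45 CPM in replicate 2 and 23.2 ± 2.96 CPM in replicate 1 (log2 -0.42, adjusted p = 0.00255). The largest log2 difference of the list was that of sn, the fly fascin, which did not pass (0.49, adjusted p = 0.223). Fim (fimbrin) and Vav had log2 differences of 0.25 and 0.01 with adjusted p of 0.317 and 0.970. Of 59 cell type markers 5 could be paired, and 1 of them passed between replicates: Arr1, a photoreceptor arrestin gene, averaged 687 ± 107 CPM in replicate 2 and 935 ± 284 CPM in replicate 1 (SD; log2 -0.40, adjusted p = 0.0204). The other photoreceptor marker paired, inaD, averaged 99.9 ± 14.2 CPM in replicate 2 and 97.4 ± 35.2 CPM in replicate 1 (log2 0.10, adjusted p = 0.608). Their part in the actin values was not tested.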

How the data were processed

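The deposited values were raw read counts per gene in 48 technical data sets. Per the labels and the methods of the study, the authors sequenced TruSeq libraries, aligned reads to BDGP Release 6 with TopHat2 2.0.9 and tallied counts with HTSeq 0.6.1 (SAMtools 0.1.19); the strand setting is not given in the sources used here. Tallies that name no gene took 8.90% to 64.6% of all tallies and were left out. Data sets of a library were summed, giving 12 times with 2 biological replicates. By the methods of the study, the 2 biological replicates came from independent crosses. Whether the title letters a, b, d and e within replicate 1 mark separate crosses is not given. Libraries of the same number deviated together from their time means (r over 0.1) in 43 of 66 pairs of times. This r ran from -0.74 through a median of 0.20 to 0.76, so in some pairs they deviated in opposite directions. The cosine fits had no replicate block, and the counts with it are given beside them.

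Members and lists were chosen with earlier results of these data known. Named genes were the 9 members, up to 4 genes per regulator or marker list, the genes most alike in pattern and the largest replicate difference of a list. Symbols came from RefSeq and from the study's tables, which are ordered by rhythm (1896 identifiers). Relations with marker sums were not run, as too few markers matched: 2 of 23 muscle genes and none for astrocytes.

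Genes with a mean of at least 20 counts (9392) were tested with edgeR 4.0.16 (R 4.3.3; quasi-likelihood, TMM factors 0.627 to 1.35, Benjamini-Hochberg over all genes, threshold 0.05) for a 24 h cosine, for day (circadian time as covariate), for replicate (time as covariate) and for rhythm by replicate. JTK_CYCLE (periods of 20, 24 and 28 h, amplitude above 0.5) was rebuilt on quantile normalised counts. With the replicate block it was run on their log2 values centred within replicates. There and with CPM, calls had no amplitude limit. SEs came from least squares on log2(CPM), with 0.5 added to each count. Correlations used 100000 permutations within replicates, two-sided. DESeq2 1.42.0 was an alternative. Fits were tested on simulated counts with known rhythms and replicate differences. Those libraries were drawn independently, with the same relative spread for all genes. Deviations shared by libraries of the same number were not simulated, so the p values were not checked against them.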

Additional observations from a re-analysis of the deposited data

How the results depend on the processing

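The count of genes with a 24 h cosine (31) was 81 with DESeq2 and 19 with data sets 1 and 3. It was 13 without both 28 h libraries and the 16 h library of replicate 1. With periods of 20 and 28 h it was 2 and 7, and with a library or a replicate left out 1 to 39. That of JTK_CYCLE (264) was 167 to 336 with 1 replicate. It was 150 with CPM of the library total, where no amplitude limit was set. Calls of Chd64 are no test of its rhythm, as the list was selected on its time course. They are given only for their dependence on the setting. Called in the main cosine and JTK_CYCLE settings, it was not called with CPM of the library total (JTK_CYCLE). By the cosine it was not called with periods of 20 or 28 h (log2 amplitudes 0.26 and 0.34) or with 1 replicate. Day calls (0 in edgeR) were 458 with DESeq2, 1 with data sets 1 and 3, and 0 to 352 with a library left out (352 without the 32 h library of replicate 2). With the replicate block, the cosine called 55 genes and JTK_CYCLE 432 (without the amplitude limit), and no member's call changed with the block.

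Values of members that changed sign passed no test in either direction. Between days, Chd64 (log2 -0.04) had 0.0010 with RLE size factors, 0.00085 with DESeq2, 0.013 with a mean of at least 100 counts and 0.017 with data sets 1 and 3; Act5C had 0.0057 with a mean of at least 100 counts and tsr -0.015 with a mean of at least 1 count. With libraries or a replicate left out, the day differences ran from -0.12 to 0.044 (Act5C), -0.016 to 0.14 (Act57B), -0.77 to 0.24 (Act79B), -0.12 to 0.31 (Act88F) and -0.15 to 0.15 (tsr). Between replicates, Act5C (-0.01) had 0.049 with a mean of at least 100 counts, 0.023 with data sets 2 and 4, and -0.076 to 0.037 with a library left out. The r of the cytoplasmic and muscle sums was 0.22 with CPM of the library total. In single replicates r ran from -0.58 to 0.021 for these sums, from -0.60 to 0.68 for Act5C and Act42A, from -0.42 to 0.32 for chic and tsr, and from -0.037 to 0.16 for Chd64 and the muscle sum. The cause was not tested. Of 1205 member values under an alternative, 1156 kept their direction and side of the threshold. Lengths of single-copy windows were not run, as no genome was used.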
